A study of Homo sapiens with 6 samples.

Results

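The interferon-stimulated and nucleic acid sensing genes are a set of 47 genes that cells use to detect foreign or misplaced nucleic acid and to answer interferon, and their RNA was followed in 22Rv1 cells before and after 6 weeks of repeated DNA damage. The members were taken by gene symbol from a list and all 47 were found among the 29804 symbols of the count table. 22Rv1 is a human prostate carcinoma epithelial cell line, and phleomycin is a radiomimetic glycopeptide that breaks both strands of DNA. RNA-seq was performed on 3 groups of 2 libraries each, labelled as biological replicates. WT cells were untreated parental 22Rv1 cells harvested at week 0. AM (age matched) cells were grown for 6 weeks without phleomycin. 6WP cells are the population that survived 6 weeks of phleomycin at 1 µg/ml, given once a day from Monday to Friday. All 3 groups come from the same line. AM differs from WT by time in culture, and with it by the time of harvest. 6WP differs from AM by phleomycin, given with a PBS wash and new medium after each dose that are not stated for AM cells. In 6WP against WT, culture time and treatment cannot be told apart.

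Cytosolic RNA is recognised by the helicases DDX58 (RIG-I) and IFIH1 (MDA5), and cytosolic DNA by MB21D1 (cGAS), whose product activates TMEM173 (STING). These sensors act through the kinase TBK1 and the factors IRF3 and IRF7 to induce interferons, which bind receptors at the cell surface and, through JAK kinases, activate STAT2 together with IRF9. The factor complex binds the interferon-stimulated response element in the promoters of antiviral genes, many of which are transcribed at a low level in cells that have met no virus. Breaks in DNA can release fragments into the cytosol, and the same genes are often examined in irradiated tumour cells.

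Total counts lay between 21222201 and 35311945 per library, and the floor of 3 counts corresponded to between 0.0883 and 0.138 CPM (this unit, counts scaled to library size with TMM factors, is the scale of all levels given below). These floors cover counting error only. The 9 prostate epithelial markers examined, KLK3 among them, were all expressed, with a summed level of 2197 to 3481 CPM, whereas PTPRC, CD3E, CD2, MS4A1 and NKG7, which mark leukocytes, had 0 counts in every library. The 6WP libraries differed from each other more than other replicates did. On the log2 scale, the median SD of the tested members was 0.08 (WT), 0.14 (AM) and 0.34 (6WP), beside 0.09, 0.09 and 0.20 over all tested genes.

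Of the 47 members, 34 passed the expression filter and were tested. The other 13 were at or near the floor. APOBEC3C and APOBEC3G, which code for DNA cytidine deaminases, had 0 counts in every library, which allows a level of up to 0.138 CPM in the shallowest of them. MB21D1 and TMEM173 had at most 1 count in a library, OAS2 at most 1, IFIT3 at most 2, and OAS1 and IFI27 at most 3. The cGAS-STING pair was therefore not detectable at this depth in any group. A further 5 members were seen above the floor in at least 1 library but were too low to test. IFIT1 had 3 and 6 counts in WT, 0 and 1 in AM and 6 in each 6WP library. IFIT2 had 8 in each WT library, 4 and 2 in AM, and 8 and 12 in 6WP. IFI44, SP100 and OASL did not exceed 6, 6 and 11 counts.

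Per kilobase of transcript, the members spanned a wide range in WT cells. ISG15, the ubiquitin-like protein that marks other proteins after interferon, was the highest at 91.6 CPM per kb, next to ADAR, the RNA editing enzyme, at 89.4. IFITM3 followed with 56.9, IRF3 with 37.1, IFITM2 with 32.7 and TREX1 with 32.6 CPM per kb. At the other end, the tested members MX2 and IFI44L were at 0.332 and 0.144 CPM per kb. IFIT1, IFIT3, OAS1, OAS2, IFI27 and IFI44, which interferon strongly induces in many cells, did not exceed 6 counts in any library.

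**Figure D1:**
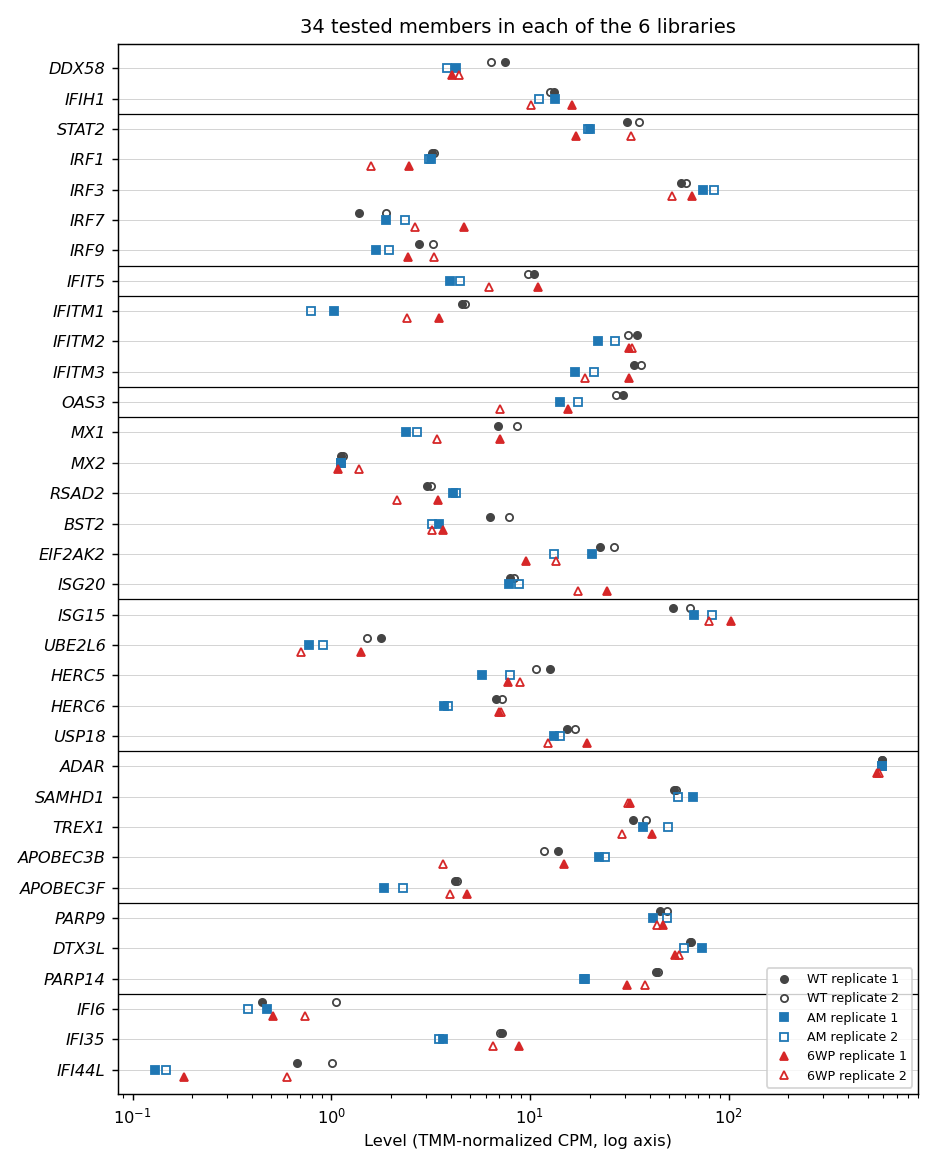
Level of each of the 34 tested members in every library, in TMM-normalized CPM on a log axis, with filled symbols for replicate 1 and open symbols for replicate 2 of WT (grey circles), AM (blue squares) and 6WP (red triangles). The AM libraries sit to the left of both WT libraries for IFITM1, MX1, IFIT5 and PARP14, and the 6WP libraries are often far apart, as for APOBEC3B at 14.9 and 3.67 CPM.

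After 6 weeks in culture without the drug, a part of the set was lower than in the parental cells. In AM against WT, 12 of the 34 tested members were called lower (35.3%) and 0 were called higher, where 9.93% of all tested genes were called lower, 7.74% higher and 17.7% in either direction. Calls are made at an adjusted p under 0.05 in edgeR's quasi-likelihood test with Benjamini-Hochberg adjustment over all 14672 tested genes. The lower members were DDX58, IFIT5, IFITM1, IFITM3, MX1, BST2, HERC5, HERC6, APOBEC3F, PARP14, IFI35 and IFI44L. IFI44L was near the floor in AM, and 11 members were called where 10 counts were required in every library. The median log2 fold change of the tested members was -0.63, and -0.0023 over all tested genes. Both AM libraries lay below both WT libraries for 20 members and above for 6, where 73.8% of all tested genes did not overlap, 36.9% in each direction. Without WT replicate 1, WT replicate 2 or AM replicate 2 the call was lost for all 12 and without AM replicate 1 it was kept for 1 (IFITM1), in fits in which 0.448% to 0.902% of all genes were called. Without 6WP replicate 1 or 6WP replicate 2, or in a fit to the WT and AM libraries alone, 21 members were called (18 lower and 3 higher, among them the same 12), in fits that called 43.9%, 44.7% and 46.5% of all genes.

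After 6 weeks of phleomycin, several of these members stood above the age matched cells. In 6WP against AM, 7 members were called higher (20.6%) and 1 lower, where 11.7% of all tested genes were called higher, 9.68% lower and 21.3% in either direction. The 7 were IFIT5, IFITM1, ISG20, HERC6, APOBEC3F, PARP14 and IFI35, and the lower member was SAMHD1. The median log2 fold change was 0.28 for the tested members and 0.05 for all tested genes. Both 6WP libraries lay above both AM libraries for 13 members and below for 7, where 62.3% of all tested genes did not overlap (33.8% higher, 28.5% lower). Of the 7, 6 were among those lower in AM against WT, an overlap that was not counted over all tested genes. The 2 comparisons share the AM libraries, so that a low AM value enters both. Without AM replicate 1 and AM replicate 2 the count of members called fell to 0 and 1 (SAMHD1), where 1.18% and 0.775% of all genes were called, and without 6WP replicate 1 and 6WP replicate 2 it was 18 and 17, where 45.8% and 33.4% were called.

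Against the parental cells, few members differed. In 6WP against WT, ISG20 was called higher and SAMHD1 and BST2 lower, 3 of 34 (8.82%), where 3.00% of all tested genes were called in either direction, 1.63% higher and 1.37% lower. The median log2 fold change was -0.23 for the tested members and 0.01 for all tested genes, and 26 of 34 had a negative value. Both 6WP libraries lay below both WT libraries for 14 members and above for 3, where 50.7% of all tested genes did not overlap (25.2% lower, 25.5% higher). Leaving out 1 WT or AM library in turn gave 0 members called and a fit to the WT and 6WP libraries alone also gave 0, where 0% to 0.682% of all genes were called. Leaving out 6WP replicate 1 or 6WP replicate 2 gave 14 or 12 members, where 25.2% or 26% of all genes were called.

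**Figure D2:**
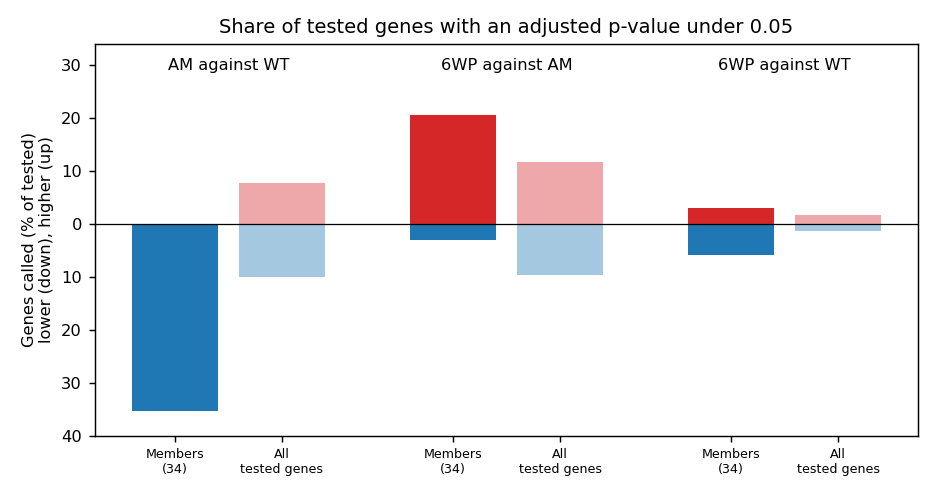
Share of tested genes called at an adjusted p under 0.05, as percent of the 34 tested members (dark bars) and of all tested genes (pale bars), with genes called higher drawn upward in red and genes called lower drawn downward in blue from 0. In AM against WT the members show only the lower bar, at 35.3% beside 9.93%, and in 6WP against AM 20.6% of members are higher beside 11.7% of all genes.

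Positions below are those of the whole gene in GENCODE on GRCh38, the build of the counts. Among the sensors, DDX58 was lower in AM than in WT cells and IFIH1 gave no call. DDX58 (chr9:32455302-32526208, - strand), the receptor for RNA with an exposed triphosphate end, was at 7.50 and 6.34 CPM in WT, 4.26 and 3.83 CPM in AM, and 4.05 and 4.37 CPM in 6WP cells. Both later groups lay below WT without overlap. The log2 fold change was -0.78 (SE 0.20, adjusted p = 0.0345) in AM against WT, -0.72 (SE 0.20, adjusted p = 0.0916) in 6WP against WT and 0.06 (SE 0.20, adjusted p = 0.85) in 6WP against AM. A second transcript on the same strand, ENSG00000288684, shares 43.2% of the DDX58 exon bases, and reads in that stretch cannot be assigned to one of them. IFIH1, which binds long double-stranded RNA, was at 13.3 and 12.7 CPM in WT, 13.3 and 11.1 CPM in AM, and 16.3 and 10.1 CPM in 6WP cells, so that the 6WP libraries enclosed all the others. Its log2 fold change against WT was -0.09 in AM (95% interval -0.62 to 0.44) and 0.02 in 6WP cells (-0.51 to 0.55).

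The 5 transcription factors gave no call in any comparison. STAT2, the interferon-activated partner of IRF9, was at 30.9 and 35.5 CPM in WT, at 20.1 and 19.6 CPM in AM, and at 17.0 and 32.2 CPM in 6WP cells. Its AM values lay below WT (log2 fold change -0.74, SE 0.26, adjusted p = 0.0848), while one 6WP library was near the AM and the other near the WT level (6WP against WT -0.43, SE 0.26, adjusted p = 0.367; 6WP against AM 0.31, SE 0.26, adjusted p = 0.414). IRF9, its DNA-binding partner, had 2.77 and 3.26 CPM in WT, 1.68 and 1.94 CPM in AM, and 2.42 and 3.28 CPM in 6WP cells, with a log2 fold change of -0.73 (SE 0.27, adjusted p = 0.0975) in AM against WT, 0.65 (SE 0.27, adjusted p = 0.119) in 6WP against AM and -0.08 (SE 0.26, adjusted p = 0.892) in 6WP against WT. The 2 factors thus had the same order of group means, WT, 6WP and AM, without passing the test. Another transcript, ENSG00000259529, shares 23.9% of the IRF9 exon bases on the same strand, so that the IRF9 counts are uncertain.

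IRF3 and IRF7, which switch on interferon genes after sensing, followed other patterns. IRF3 was at 57.8 and 60.7 CPM in WT, 73.9 and 84.3 CPM in AM, and 65.5 and 51.8 CPM in 6WP cells, and was highest in AM (log2 fold change 0.42, SE 0.14, adjusted p = 0.0755 against WT and -0.43, SE 0.14, adjusted p = 0.0622 in 6WP against AM). IRF7 was highest in 6WP cells, with 4.66 and 2.64 CPM beside 1.38 and 1.88 CPM in WT and 1.89 and 2.36 CPM in AM (6WP against WT 1.16, SE 0.35, adjusted p = 0.109; 6WP against AM 0.77, SE 0.33, adjusted p = 0.131). IRF1, induced mainly by interferon gamma, was at 3.21 and 3.31 CPM in WT, 3.19 and 3.09 CPM in AM, and 2.46 and 1.59 CPM in 6WP cells, below both other groups (6WP against WT -0.69, SE 0.27, adjusted p = 0.193; 6WP against AM -0.63, SE 0.27, adjusted p = 0.129). In the annotation, transcripts of the opposite strand cover 19.3% of the IRF3 and 22.9% of the IRF1 exon bases, and the strand setting of the counting was not given in the sources used here.

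IFITM1 (chr11:310041-315272, + strand), an interferon-induced membrane protein that hinders virus entry, had the largest fall in AM against WT of the called members after IFI44L. Its counts were 102 and 103 in WT, 24 and 27 in AM, and 96 and 68 in 6WP cells, or 4.55 and 4.73 CPM, 1.03 and 0.795 CPM, and 3.47 and 2.40 CPM. No 2 groups overlapped. It was lower in AM than in WT by a log2 fold change of -2.36 (SE 0.30, adjusted p = 0.00434), higher in 6WP than in AM by 1.70 (SE 0.30, adjusted p = 0.00961), and -0.66 (SE 0.26, adjusted p = 0.193) in 6WP against WT. Its relatives IFITM2 and IFITM3 lie next to it on chromosome 11, with 0.643 kb between IFITM2 and IFITM1 and 4.40 kb between IFITM1 and IFITM3. IFITM3 (chr11:319676-329475, - strand) was at 33.4 and 36.1 CPM in WT, 16.9 and 20.9 CPM in AM, and 31.7 and 18.9 CPM in 6WP cells, and was called in AM against WT (-0.87, SE 0.23, adjusted p = 0.0391). IFITM2 was at 32.9 ± 2.57 CPM in WT, 24.4 ± 3.25 CPM in AM and 31.9 ± 0.782 CPM in 6WP cells (SD, n = 2), with no call. All 3 family members had their lowest mean in AM. The 3 genes are similar in sequence, and another transcript, ENSG00000288681, shares 21.1% of the IFITM1 exon bases on the same strand, so that the split of reads among them is uncertain.

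IFIT5 (chr10:89414568-89421605, + strand), which binds single-stranded RNA and was the sole testable gene of its family, showed the same order of groups. It was at 10.5 and 9.74 CPM in WT, 3.96 and 4.45 CPM in AM, and 11.0 and 6.20 CPM in 6WP cells. The log2 fold change was -1.27 (SE 0.28, adjusted p = 0.0212) in AM against WT and 1.03 (SE 0.27, adjusted p = 0.0337) in 6WP against AM, and -0.24 (SE 0.26, adjusted p = 0.64) in 6WP against WT. Its neighbours IFIT1 and IFIT2, which lie in the same cluster on chromosome 10, also had their lowest counts in AM, and IFIT3 had 0 and 1 counts in WT, 1 and 2 in AM and 1 and 0 in 6WP cells, all at levels too low to test.

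OAS3, which makes the oligoadenylates that activate RNase L, was the sole testable OAS gene. It was at 29.3 and 27.0 CPM in WT, 14.1 and 17.4 CPM in AM, and 15.5 and 7.08 CPM in 6WP cells. Every later library lay below WT, with a log2 fold change of -1.32 (SE 0.31, adjusted p = 0.0668) in 6WP against WT and -0.83 (SE 0.31, adjusted p = 0.0965) in AM against WT, neither of which passed the threshold. EIF2AK2, the kinase PKR that stops translation on double-stranded RNA, had a like order, with 22.4 and 26.5 CPM in WT, 20.6 and 13.2 CPM in AM, and 9.55 and 13.5 CPM in 6WP cells (6WP against WT -1.09, SE 0.25, adjusted p = 0.0595).

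The other antiviral effectors did not share one direction. MX1 (chr21:41420020-41470071, + strand), a GTPase that traps viral nucleocapsids, was at 6.88 and 8.59 CPM in WT, 2.37 and 2.71 CPM in AM, and 7.09 and 3.42 CPM in 6WP cells. It was lower in AM than in WT by -1.60 (SE 0.34, adjusted p = 0.0203), and 1.04 (SE 0.35, adjusted p = 0.066) in 6WP against AM missed the threshold. MX2, which lies 10.6 kb away on chromosome 21, was between 1.08 and 1.37 CPM in all 6 libraries, with no call. BST2 (tetherin; chr19:17402939-17405630, - strand), which holds budding virus at the membrane, was at 6.29 and 7.86 CPM in WT, 3.49 and 3.21 CPM in AM, and 3.65 and 3.21 CPM in 6WP cells. It was lower than WT in both later groups, by -1.08 (SE 0.21, adjusted p = 0.0154) in AM and -1.04 (SE 0.21, adjusted p = 0.0451) in 6WP cells, and these 2 groups were within 0.04 of each other on the log2 scale (95% interval -0.47 to 0.54). The call in 6WP cells was lost with library size scaling alone and with a replicate block.

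ISG20 (chr15:88635670-88656483, + strand), an exonuclease that degrades RNA, was higher in 6WP cells than in both other groups. Its counts were 178 and 180 in WT, 183 and 299 in AM, and 676 and 496 in 6WP cells, or 7.95 and 8.27 CPM, 7.88 and 8.80 CPM, and 24.4 and 17.5 CPM. Both 6WP libraries lay far above the other 4, which overlapped. The log2 fold change was 1.37 (SE 0.19, adjusted p = 0.0152) against WT and 1.33 (SE 0.19, adjusted p = 0.00549) against AM, a 2.58-fold and 2.51-fold higher level, and 0.04 (SE 0.20, adjusted p = 0.893) in AM against WT. RSAD2 (viperin), another effector, was at 3.10 ± 0.0947 CPM in WT, 4.16 ± 0.106 CPM in AM and 2.79 ± 0.909 CPM in 6WP cells (SD, n = 2) and gave no call.

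**Figure D3:**
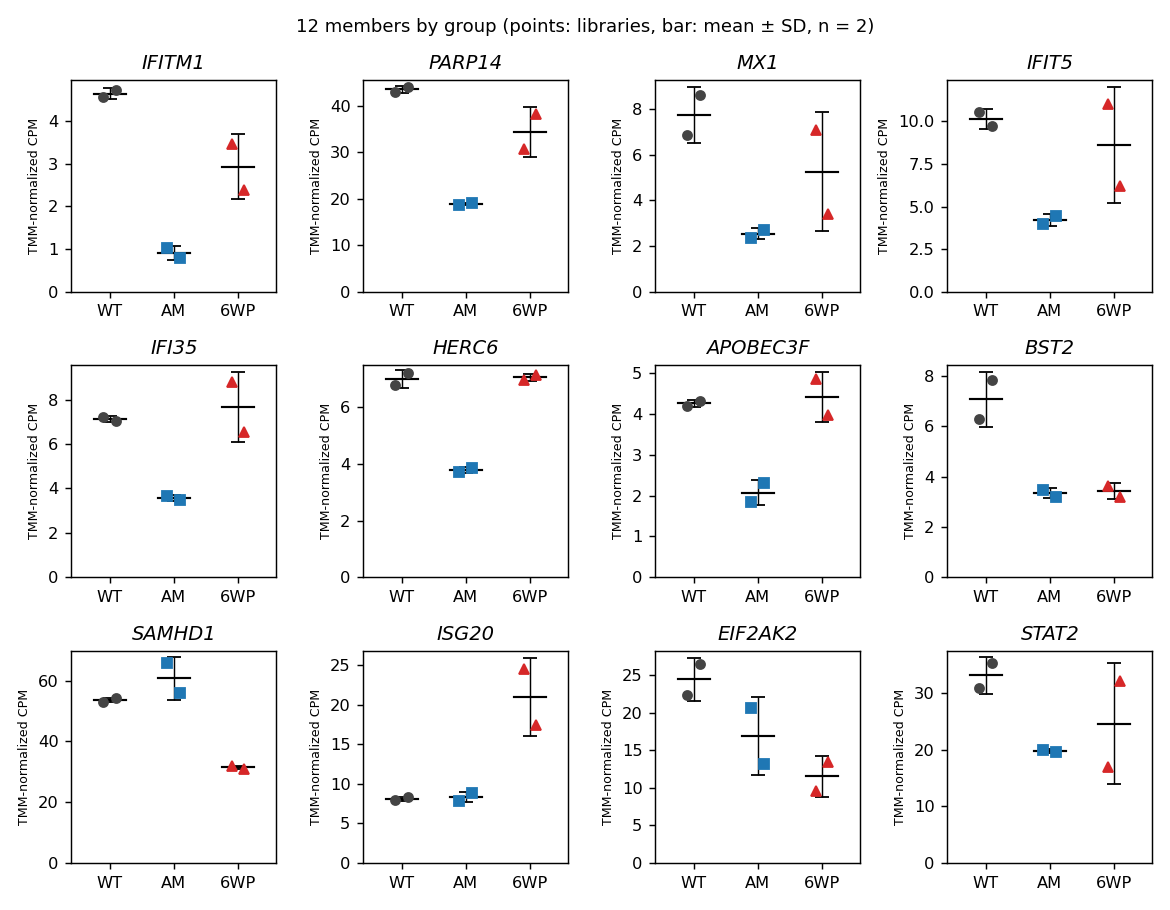
Levels of 12 members in TMM-normalized CPM, each panel with its own axis from 0, for WT, AM and 6WP; points are libraries and bars the mean ± SD (n = 2). IFITM1 is lowest in AM, ISG20 is raised in both 6WP libraries (24.4 and 17.5 CPM), SAMHD1 is lowest in 6WP, and BST2 is as low in 6WP as in AM.

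In the ISG15 system, HERC5 and HERC6 were called lower in AM cells, and ISG15 gave no call. ISG15 itself was at 52.5 and 64.2 CPM in WT, 66.7 and 82.4 CPM in AM, and 102 and 79.3 CPM in 6WP cells, with log2 fold changes of 0.64 (SE 0.17, adjusted p = 0.0868) in 6WP and 0.36 (SE 0.17, adjusted p = 0.182) in AM against WT. HERC5 (chr4:88457119-88506163, + strand), the ligase that attaches ISG15, was at 12.6 and 10.7 CPM in WT, 5.73 and 7.92 CPM in AM, and 7.74 and 8.88 CPM in 6WP cells, and was lower in AM than in WT (-0.77, SE 0.21, adjusted p = 0.04). HERC6 (chr4:88378739-88443097, + strand), its close relative 14.0 kb away on chromosome 4, was at 6.79 and 7.21 CPM in WT, 3.70 and 3.86 CPM in AM, and 6.98 and 7.15 CPM in 6WP cells. The log2 fold change of HERC6 was -0.89 (SE 0.18, adjusted p = 0.017) in AM against WT, 0.90 (SE 0.18, adjusted p = 0.0137) in 6WP against AM and 0.01 (95% interval -0.39 to 0.42) in 6WP against WT, where the sign turned with other scalings. The conjugating enzyme UBE2L6 was at 1.65 ± 0.191 CPM in WT, 0.844 ± 0.0974 CPM in AM and 1.06 ± 0.499 CPM in 6WP cells, and USP18, which removes ISG15, at 16.2 ± 1.06, 13.7 ± 0.709 and 15.9 ± 4.93 CPM (SD, n = 2), both without a call.

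Among the enzymes that edit or degrade nucleic acid, SAMHD1 was lower in 6WP cells than in both other groups. SAMHD1 (chr20:36890229-36951893, - strand), which hydrolyses the deoxynucleotides needed to copy DNA, had 1190 and 1180 counts in WT, 1530 and 1896 in AM, and 881 and 880 in 6WP cells, or 53.1 and 54.2 CPM, 65.9 and 55.8 CPM, and 31.9 and 31 CPM. Both 6WP libraries were below the other 4, and in contrast to most members they differed little from each other. The log2 fold change was -0.77 (SE 0.12, adjusted p = 0.0214) against WT and -0.95 (SE 0.12, adjusted p = 0.00379) against AM, with 0.18 (SE 0.12, adjusted p = 0.315) in AM against WT. An opposite-strand transcript of TLDC2 overlaps 9.90% of its exon bases.

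APOBEC3F (chr22:39040604-39055972, + strand), a cytidine deaminase, was at 4.20 and 4.32 CPM in WT, 1.85 and 2.30 CPM in AM, and 4.85 and 3.98 CPM in 6WP cells. It was lower in AM than in WT (-1.03, SE 0.24, adjusted p = 0.0257) and higher in 6WP than in AM (1.08, SE 0.23, adjusted p = 0.0182), and 0.05 (SE 0.23, adjusted p = 0.922) in 6WP against WT. APOBEC3B, which lies in the same cluster on chromosome 22, had its highest level in AM and a wide spread in 6WP. It was at 13.9 and 11.8 CPM in WT, 22.3 and 23.8 CPM in AM, and 14.9 and 3.67 CPM in 6WP cells, and was not called. The APOBEC3 genes are near-copies of one another, and reads may be divided among them unevenly. ADAR, which edits adenosine in double-stranded RNA, was at 591 ± 1.14, 591 ± 0.507 and 566 ± 8.99 CPM in WT, AM and 6WP cells (SD, n = 2), and 6WP against WT gave a log2 fold change of -0.06 (95% interval -0.29 to 0.16). TREX1, the DNA exonuclease that clears cytosolic DNA, was at 35.7 ± 3.76, 43.3 ± 8.81 and 35.1 ± 8.61 CPM (SD, n = 2) without a call, and 100% of its exon bases also belong to ATRIP, so that this value may include reads of either gene.

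PARP14 (chr3:122680839-122730840, + strand), an ADP-ribosyltransferase, gave the smallest adjusted p of the members in AM against WT. It was at 43.0 and 44.1 CPM in WT, 18.7 and 19 CPM in AM, and 30.6 and 38.1 CPM in 6WP cells. No 2 groups overlapped, and the replicates of WT and of AM were close. The log2 fold change was -1.21 (SE 0.14, adjusted p = 0.00332) in AM against WT, 0.87 (SE 0.14, adjusted p = 0.00704) in 6WP against AM and -0.34 (SE 0.14, adjusted p = 0.192) in 6WP against WT. PARP9 and its partner DTX3L start next to each other on chromosome 3, with 106 kb between the end of DTX3L and the start of PARP14, and neither was called. PARP9 was at 47 ± 2.71, 45.3 ± 4.93 and 45.1 ± 2.34 CPM and DTX3L at 64.1 ± 0.371, 66.6 ± 9.62 and 55.1 ± 1.95 CPM in WT, AM and 6WP cells (SD, n = 2).

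Of the IFI genes, IFI35 and IFI44L were lower in AM than in WT. IFI35 (chr17:43006740-43014456, + strand), a leucine zipper protein, was at 7.23 and 7.03 CPM in WT, 3.66 and 3.47 CPM in AM, and 8.79 and 6.55 CPM in 6WP cells, with log2 fold changes of -1.0 (SE 0.21, adjusted p = 0.0191) in AM against WT, 1.11 (SE 0.21, adjusted p = 0.0118) in 6WP against AM and 0.10 (SE 0.20, adjusted p = 0.802) in 6WP against WT. IFI44L (chr1:78619902-78646145, + strand) had 15 and 22 counts in WT, 3 and 5 in AM, and 5 and 17 in 6WP cells, and its log2 fold change of -2.55 (SE 0.65, adjusted p = 0.0332) in AM against WT rests on few reads. Both AM libraries were close to the floor, so IFI44L passed the expression filter through the other groups, and it was no longer tested when 10 counts were required in every library. IFI6, a mitochondrial protein that limits cell death, was at 0.752 ± 0.431, 0.428 ± 0.0643 and 0.623 ± 0.165 CPM (SD, n = 2) without a call.

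**Figure D4:**
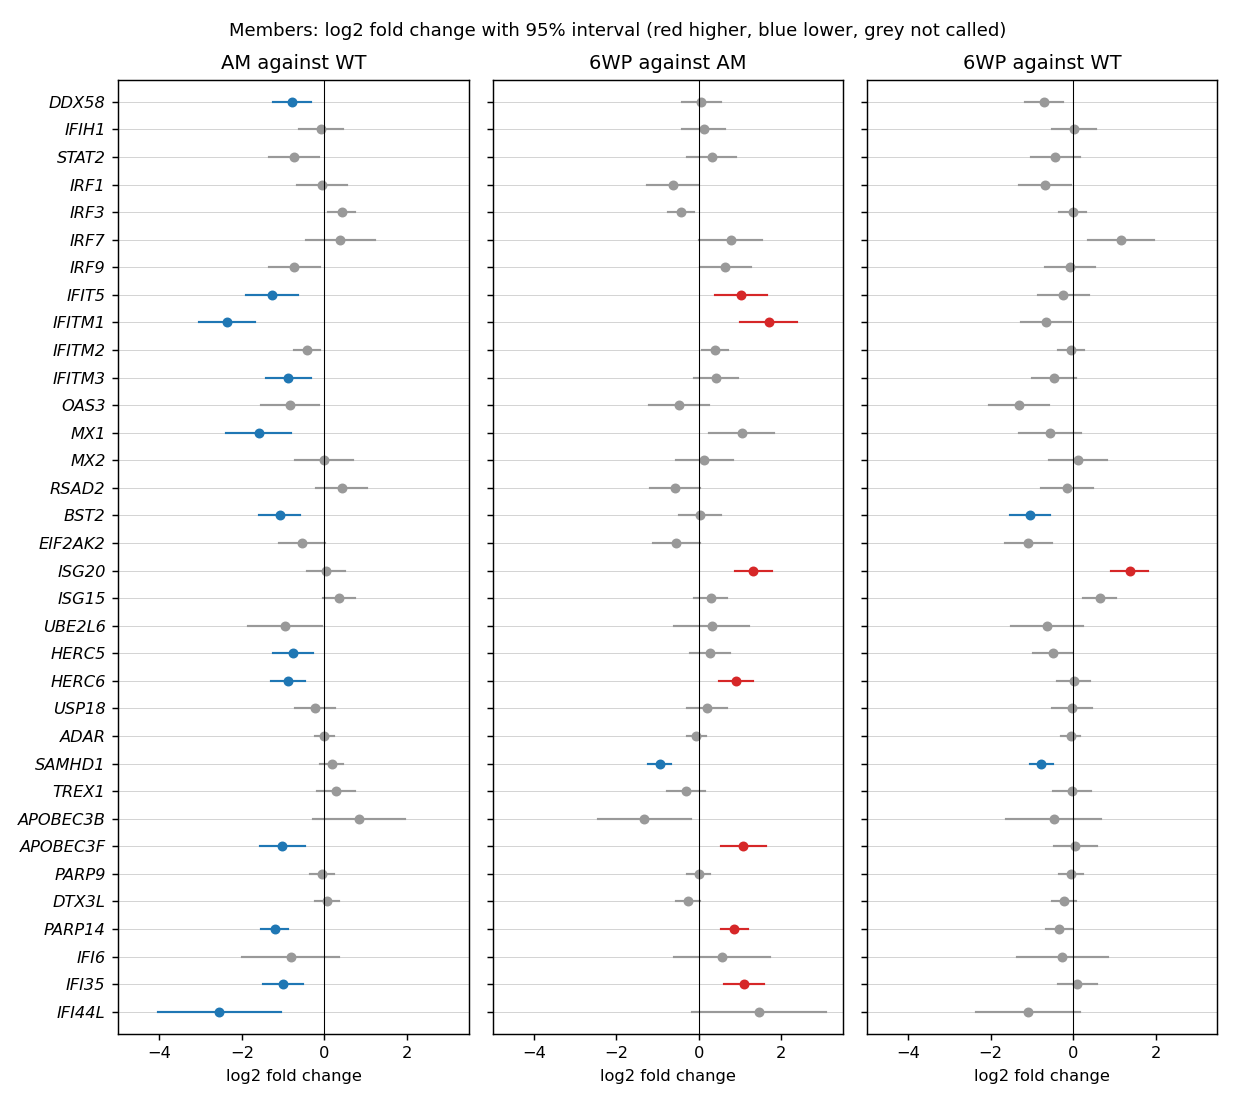
Log2 fold change of the 34 tested members with its 95% interval in AM against WT, 6WP against AM and 6WP against WT; red marks members called higher, blue called lower and grey not called. The left panel holds 12 blue points and no red one, the middle panel 7 red points and 1 blue, and the right panel 1 red and 2 blue.

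The promoters of the members were examined for the letters of the response element. The window ran from 250 bases before to 50 after the RefSeq gene start (GRCh38.p14), and 33 of the 47 members had an entry. APOBEC3B, APOBEC3C, APOBEC3F, APOBEC3G, IFIT2, IFITM2, IRF3, IRF7, MB21D1, MX2, OAS2, OASL, TMEM173 and USP18 had none. The interferon-stimulated response element was searched as GAAANNGAAA and the gamma-activated site as TTCNNNGAA, each on both strands. The first was found in 19 of 33 member promoters (57.6%) and in 3.65% of all 27305 promoters, and the second in 8 of 33 (24.2%) and in 7.88%. Matches to both motifs overlapped in BST2, IFITM1 and IFI27. The following stretches show one response element for members called in AM against WT, and for ISG20 and ISG15, which were not. They read from 5′ to 3′ on the strand of the gene, with the match in capitals (GAAA first where it lies on the strand of the gene, TTTC first where it lies on the other), and positions are those of the first base of the match from the gene start.
IFITM1 (chr11:313992-314017, + strand, position -40): aacagcagGAAATAGAAActtaagag
IFITM3 (chr11:320878-320903, - strand, position -35): actgttgaGAAACCGAAActactggg
IFIT5 (chr10:89414515-89414540, + strand, position -45): ctattaagTTTCGGTTTCtgaagctt
PARP14 (chr3:122680802-122680827, + strand, position -29): caggaaacGAAAGCGAAAgagtcaaa
BST2 (chr19:17405743-17405768, - strand, position -130): ctttctggGAAACTGAAActgaaaac
HERC5 (chr4:88457037-88457062, + strand, position -74): acattatgTTTCGTTTTCcactggag
ISG20 (chr15:88638939-88638964, + strand, position -69): acaaactaGAAACTGAAAcagggtcg
ISG15 (chr1:1013382-1013407, + strand, position -107): gggaaaggGAAACCGAAActgaagcc

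Members with and without these letters both included genes that moved. In AM against WT, 8 of the 15 tested members with a response element were called lower, with a median log2 fold change of -0.83, and 3 of the 12 tested members without one, with a median of -0.39. DDX58, HERC6 and IFI35 were called without a response element match in this window, and IFIH1, OAS3 and ISG15 held matches and gave no call. In 6WP against AM, 4 of the 15 with a match were called higher and 0 lower, and of the 12 without, 2 were called higher and 1, SAMHD1, lower. In 6WP against WT, 1 was called higher and 1 lower among those with a match and 1 lower among those without. Over all tested genes, 9.93% were called lower in AM against WT. In 6WP against AM 11.7% were called higher and 9.68% lower, and in 6WP against WT 1.63% higher and 1.37% lower. Such shares were not computed for genes outside the set with a match. The difference between members with and without a match was not tested, and a match in these letters does not show that a factor binds there.

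The ligands of the pathway were not seen. All 10 interferon genes examined, from the alpha, beta, gamma, epsilon, kappa, omega and lambda types, had 0 counts in every library, which allows up to 0.138 CPM each. Their receptors were expressed. IFNAR1 was at 61.7 ± 0.798, 66 ± 8.29 and 56.2 ± 8.14 CPM in WT, AM and 6WP cells and IFNAR2, the other chain of the type I receptor, at 17.9 ± 0.632, 18.1 ± 2.78 and 15.2 ± 1.84 CPM, with no call. IFNLR1, the specific chain of the lambda receptor, was at 13.9 ± 2.33, 8.18 ± 0.244 and 12.5 ± 3.46 CPM, where AM against WT gave -0.76 (SE 0.22, adjusted p = 0.0503). IFNGR1 and IFNGR2, the chains of the gamma receptor, had a log2 fold change in 6WP against AM of 0.42 (SE 0.12, adjusted p = 0.0407) and 0.62 (SE 0.14, adjusted p = 0.0227), both called higher. JAK1, the kinase that all these receptors use, was low per kilobase of transcript in WT cells, at 0.437 CPM per kb beside 6.79 for TYK2 and 2.37 for JAK2.

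Of the 45 ligand, receptor and sensing genes outside the set, 27 were tested, with 0 called in 6WP against WT (3 had an unadjusted p under 0.05, and 3.00% of all tested genes were called). In AM against WT 2 were lower and 0 higher (7.41% called, beside 17.7% of all tested genes), and in 6WP against AM 4 were higher and 3 lower (25.9% called, beside 21.3%). TLR3, the endosomal receptor for double-stranded RNA, had 36 and 30 counts in WT, 5 and 4 in AM, and 27 and 19 in 6WP cells. With both AM libraries near the floor, it passed the expression filter through the other groups, and its fold changes rest on few reads. It was lower in AM than in WT by -3.19 (SE 0.46, adjusted p = 0.00657) and higher in 6WP than in AM by 2.34 (SE 0.48, adjusted p = 0.0152). DHX58 (LGP2), which modulates both RNA helicase sensors, was at 3.08 and 3.12 CPM in WT, 1.33 and 1.44 CPM in AM, and 4.56 and 2.78 CPM in 6WP cells, and moved likewise (-1.15, SE 0.31, adjusted p = 0.0383, and 1.39, SE 0.30, adjusted p = 0.0177). RNASEH2A and RNASEH2C, subunits of the nuclease that removes RNA from DNA, and TBK1, the kinase downstream of the sensors, were lower in 6WP than in AM by -1.08 (SE 0.25, adjusted p = 0.0229), -0.78 (SE 0.21, adjusted p = 0.0375) and -0.41 (SE 0.11, adjusted p = 0.036). RNASEH2A was at 64.6 and 64.8 CPM in WT, 103 and 118 CPM in AM, and 68.3 and 36.1 CPM in 6WP cells. RNASEH2A and RNASEH2C had their highest mean in AM. In 6WP against WT they gave -0.31 (SE 0.25, adjusted p = 0.508) and -0.13 (SE 0.22, adjusted p = 0.759). THSD8 shares 53.3% of the RNASEH2A exon bases on the same strand. On the opposite strand, KAT5 covers 28.9% of the RNASEH2C exon bases, so that both counts are uncertain. The DNA sensors IFI16, AIM2 and ZBP1 had at most 1 count in a library.

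**Figure D5:**
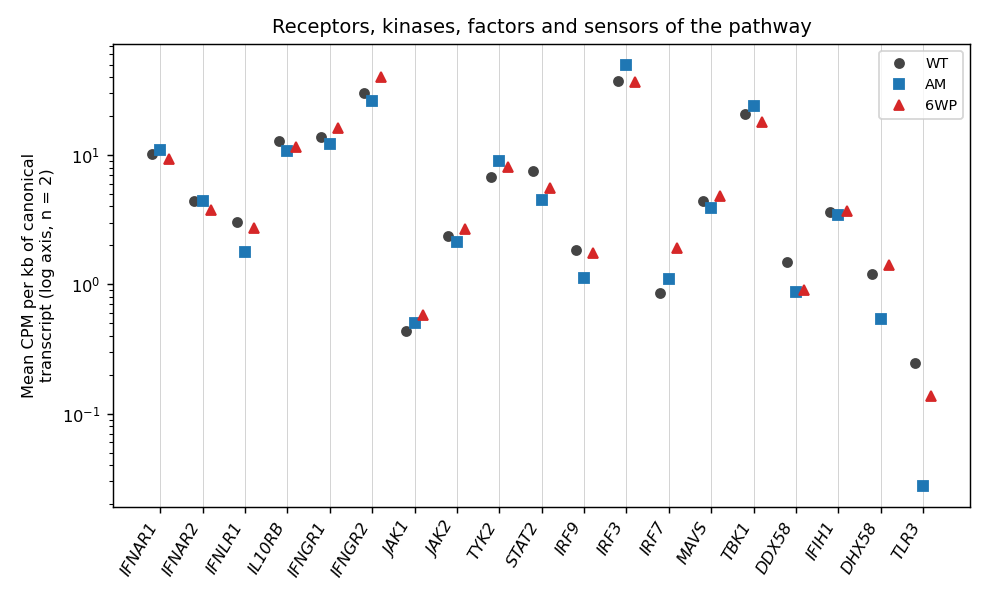
Mean level (n = 2) of receptors, kinases, factors and sensors in WT, AM and 6WP, in CPM per kilobase of canonical transcript on a log axis. JAK1 lies below the other kinases in every group (0.437 CPM per kb in WT), and TLR3 shows the widest gap between groups, with its lowest value in AM.

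A second list, of 51 other interferon-stimulated genes, gave 30 tested genes. In AM against WT 6 were lower (20%) and 2 higher (6.67%), beside 9.93% and 7.74% of all tested genes, with a median log2 fold change of -0.40. In 6WP against AM 5 were higher (16.7%) and 4 lower (13.3%), beside 11.7% and 9.68%, with a median of 0.03. Against WT, 6WP cells had 1 lower gene (3.33%, beside 1.37% of all tested genes) and 0 higher, with a median of -0.19. DDX60, a helicase that aids DDX58, was at 6.16 and 4.09 CPM in WT, 1.08 and 0.972 CPM in AM, and 2.78 and 1.90 CPM in 6WP cells, so that no 2 groups overlapped (AM against WT -2.33, SE 0.33, adjusted p = 0.00606; 6WP against AM 1.2, SE 0.33, adjusted p = 0.0393). TRIM38 (-2.08, SE 0.30, adjusted p = 0.00657), SP140L (-0.78, SE 0.14, adjusted p = 0.0117) and the inflammatory caspase CASP4 (-3.06, SE 0.62, adjusted p = 0.0164), with 3 and 2 counts in AM and tested through the other groups, were also lower in AM than in WT and higher in 6WP than in AM (1.00, SE 0.30, adjusted p = 0.0498; 0.77, SE 0.14, adjusted p = 0.0102; 2.33, SE 0.65, adjusted p = 0.0391). TRIM5, which restricts retroviral capsids, was lower in 6WP cells than in both other groups, as SAMHD1 was. It was at 18.1 and 17.8 CPM in WT, 20.2 and 19.6 CPM in AM, and 8.57 and 7.01 CPM in 6WP cells, lower than WT by -1.21 (SE 0.15, adjusted p = 0.00944) and than AM by -1.35 (SE 0.15, adjusted p = 0.00272). TNFSF10 (TRAIL), a death ligand, went the other way in AM, with 14 and 26 counts in WT, 172 and 216 in AM, and 35 and 141 in 6WP cells (AM against WT 2.91, SE 0.61, adjusted p = 0.0183).

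In bulk RNA, a change in the share of cells that make a gene and a change in its level per cell cannot be told apart. The 10 leukocyte markers summed to 0.893 and 1.10 CPM in WT, 0.474 and 0.707 CPM in AM, and 1.19 and 0.705 CPM in 6WP cells, with 5 of them at 0 in every library. The 6 fibroblast markers summed to between 1.74 and 4.23 CPM, and the 5 endothelial markers to at most 0.322 CPM. The part of such cells in the members' values was not tested.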

How the data were processed

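RNA was measured in 6 libraries of 22Rv1 cells (WT, AM and 6WP, 2 each). RNA was isolated with TRI reagent, and stranded libraries were sequenced as 100 base single end reads. The submitters' processing notes name STAR 2.5.3a, StringTie 1.3.3, featureCounts 1.5.3, edgeR 3.22.3, R 3.5.0 and hg38. The table deposited by the authors holds raw counts by gene symbol that were not normalized, and 0 columns were left out. Gene annotation and strand setting were not given in the sources used here, so counts of overlapping or near-identical genes are uncertain.

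With edgeR 4.0.16 in R 4.3.3, genes were filtered with filterByExpr over the 3 groups (14672 of 29804 kept), TMM factors were computed and all 6 libraries entered one quasi-likelihood fit with no covariate. Tests were two-sided, with Benjamini-Hochberg adjustment over all tested genes and a threshold of 0.05. SE was obtained by dividing the log2 fold change by the root of F. The p-values measure the spread between the 2 libraries of a group, pooled over the 3 groups and with information shared across genes. Each comparison thus also carries the spread of the group it leaves out, so that the wider 6WP spread enters AM against WT. An exact permutation test of 2 against 2 cannot give p below 0.333. The pipeline was tested on simulated data.

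Members and lists were chosen with earlier results of these data known. Full statistics were given for members called in any comparison and for sensors and transcription factors, and at most 6 genes were named from each further list, those of smallest p among the called, besides ligands and receptors by level. A few uncalled members are given as values. Positions and exon overlaps are from GENCODE release 44 on GRCh38, and levels per kilobase use its canonical transcript. Alternatives were other scalings and filters, DESeq2 1.42.0, a fit to 2 groups, a replicate block and leaving out each library. Libraries with the same replicate number shared no visible deviation across groups (correlations of deviations 0.04, 0.09 and -0.02). These values cannot show whether the cultures were paired by design.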

Additional observations from a re-analysis of the deposited data

How the results depend on the processing

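The count of called members kept within 1.5 times its value in 6WP against AM under every alternative that used all 6 libraries or 4, and in AM against WT under all of these but the fit to the WT and AM libraries alone, which called 21 in place of 12. In 6WP against WT, 3 members were called, beside 3.00% of all tested genes. Without a filter beyond 1 count in total 6 were called, where 4.37% of all genes were. The Wald test of DESeq2 also called 6, where 8.48% of all genes were called. Both added EIF2AK2, ISG15 and OAS3 to the 3. In the fit to 2 groups 0 were called, where 0.661% of all genes were. Leaving out 1 library in turn gave 0 to 14 members in 6WP against WT, 0 to 18 in 6WP against AM and 0 to 21 in AM against WT, with the high counts when a 6WP library was left out and the low counts when a WT or AM library was; in these fits a lone library is assumed to vary like the other groups, and the cause was not tested. A replicate block gave 12 members called in AM against WT, 2 in 6WP against WT, where BST2 was lost, and 9 in 6WP against AM, where APOBEC3B was gained, so that the pairing of numbers, which the correlations did not show, changed no other call.

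No called value of a named member changed its sign. Uncalled values near 0 did. HERC6 in 6WP against WT was -0.0049 with the size factors of DESeq2 and with its Wald test and -0.011 with library size only. ISG20 in AM against WT was -0.018 with library size only, and IFIH1 in 6WP against WT -0.0064 with the replicate block. With 1 library left out, the lowest and highest values were -0.11 to 0.16 for APOBEC3F in 6WP against WT, -0.059 to 0.10 for BST2 in 6WP against AM, -0.022 to 0.14 for DDX58 in 6WP against AM, -0.030 to 0.056 for HERC6 in 6WP against WT, -0.14 to 0.27 for IFI35 in 6WP against WT, -0.27 to 0.39 for IFIH1 in 6WP against AM, -0.37 to 0.30 for IFIH1 in 6WP against WT, -0.23 to 0.024 for IFIH1 in AM against WT, -0.72 to 0.10 for IFIT5 in 6WP against WT, -0.012 to 0.71 for IFITM3 in 6WP against AM, -0.21 to 0.12 for IRF3 in 6WP against WT, -0.34 to 0.11 for IRF9 in 6WP against WT, -0.054 to 0.11 for ISG20 in AM against WT and -0.25 to 0.70 for STAT2 in 6WP against AM.

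The 13 members that did not pass the expression filter, none above 12 counts in a library, could not be compared at this depth. IFI44L passed it with 3 and 5 counts in AM.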
